A study of Mus musculus with 42 samples.

Results

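Kidneys of KspCre mice that had lost both Tsc2 and Tfeb were compared with kidneys of KspCre mice that had lost Tsc2 alone, at postnatal day 50 and without drug or vehicle, to ask what the loss of Tfeb changes when Tsc2 is already missing. The comparison rests on 6 of the 42 libraries of the series, 3 labelled Tsc2+Tfeb DKO (here DKO) and 3 labelled Tsc2 KO, chosen by genotype and treatment and not by any measured value. Both groups carried Tsc2 fl/fl and the Cre transgene, and the DKO mice also carried Tfeb fl/fl. KspCre is driven by the promoter of cadherin 16, a kidney-specific cadherin, so recombination was limited to tubular epithelium while RNA came from a piece of kidney with all its cell types. Cre-negative wild type controls (n = 3) and Tfeb KO mice (n = 3) of the same cohort entered the same fit. The Tsc2 KO and DKO mice (n = 3 each) that received vehicle by intraperitoneal injection, also at postnatal day 50, served as separate animals of the same 2 genotypes. The test of the difference between the cohorts also used the vehicle controls and the mice given rapamycin, an inhibitor of mTORC1, as 3 groups of control, Tsc2 KO and DKO (n = 3 each).

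TSC2 is a subunit of the complex that keeps the kinase mTORC1 inactive through the small GTPase Rheb. TFEB is a transcription factor of the MiT/TFE family, with TFE3, MITF and TFEC as its relatives. It binds E-box motifs in the promoters of lysosomal and autophagy genes, and also drives the Rag GTPases that bring mTORC1 to the lysosome. When nutrients are present, mTORC1 at the lysosome phosphorylates TFEB and keeps it in the cytoplasm.

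The 12 untreated libraries held 14926050 to 20541625 counts on genes, and all 12 had Xist (15.8 to 29.9 FPKM, fragments scaled to gene length and library size) with Y-linked transcripts at or near 0. DKO 1 stood apart from every other library. It had 94 protein-coding genes at 5 FPKM or more that were at least 4-fold above the highest of the other 11 libraries, against 13 in Tfeb KO 2, 1 in control 1 and 0 in the others. The leading genes of DKO 1 were Sprr2f (79.3 FPKM, next library 0.483), the antiprotease Slpi (63.4), the ubiquitin-like protein Ubd (130.2) and the neutrophil protein Ltf (21.6). Summed over 24 markers of T and NK cells, DKO 1 reached 158 FPKM, DKO 2 9.78 and DKO 3 14.4, against 10.3 to 17.9 in Tsc2 KO. For 25 macrophage markers the sums were 3785 in DKO 1, 449 in DKO 2 and 608 in DKO 3, against 946 to 1490 in Tsc2 KO. Fat markers varied widely, from 7.83 to 732 FPKM summed over 10 genes in Tsc2 KO, from 98.4 to 987 in DKO and from 137 to 723 in controls. In Tfeb KO they varied less (103 to 152). The sum of 11 adrenal genes was at 0.740 to 2.33 FPKM in every untreated library. Tubular markers were present throughout, with proximal tubule sums of 3767 to 7184 FPKM in Tsc2 KO, 10001 to 10912 in DKO and 16391 to 19713 in controls. The main results are therefore given with and without DKO 1, and the part that immune transcripts play in them was not tested. In tissue RNA, fewer cells of a type and less RNA per cell cannot be told apart.

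**Figure D1:**
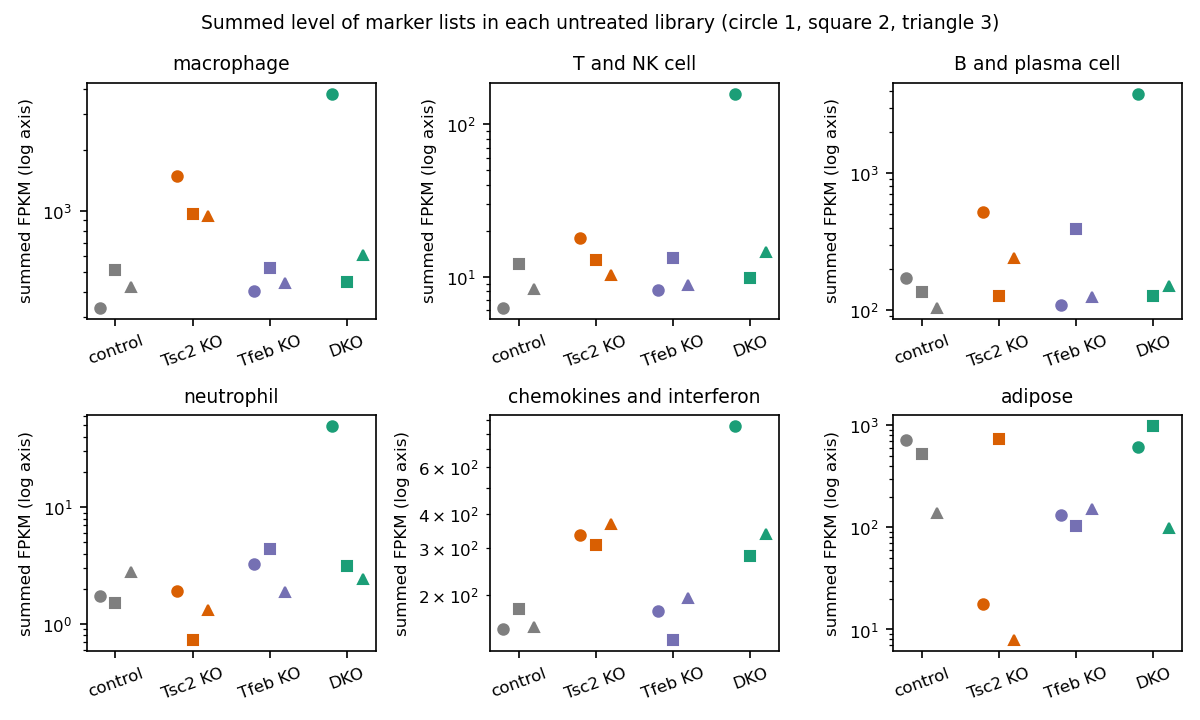
Summed FPKM (log axis) of 6 marker lists in each of the 12 untreated libraries, 1 panel a list, with the marker shape giving the replicate number. DKO 1 lies above all other libraries for macrophage, T and NK cell, B and plasma cell, neutrophil and chemokine lists, while the fat list scatters within Tsc2 KO and DKO alike.

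The targeted transcripts were looked at first. Tsc2 (chr17:24595816-24632630, mm10) was at 3.54, 3.81 and 4.37 FPKM in Tsc2 KO and at 5.27, 5.81 and 5.17 in DKO, against 8.93 ± 0.289 (SD, n = 3) in controls. Both knockout groups lay below every control, and every DKO library lay above every Tsc2 KO library. The difference between DKO and Tsc2 KO was 0.47 on the log2 scale (SE 0.14), and edgeR's quasi-likelihood p was 0.166 after Benjamini-Hochberg adjustment. Without DKO 1 the log2 fold change was 0.49. Tsc2 was also higher in vehicle DKO than in vehicle Tsc2 KO. Its log2 fold change there was 0.63 (edgeR adjusted p 0.0027) with vehicle Tsc2 KO 1 and vehicle DKO 2, rich in adrenal transcripts, left out. The part that this difference in Tsc2 plays in the other results was not tested. Tfeb (chr17:47737030-47792419) was at 3.96, 6.12 and 3.66 FPKM in Tsc2 KO, at 4.09, 3.08 and 2.65 in DKO and at 6.05 ± 0.196 (SD, n = 3) in controls. The groups overlapped through DKO 1, which exceeded 2 of the 3 Tsc2 KO libraries. The log2 fold change of Tfeb was -0.48 (SE 0.20, edgeR adjusted p 0.36), and when 1 library was left out it ran from -0.21 (adjusted p 0.731) without Tsc2 KO 2 to -0.67 (adjusted p 0.237) without DKO 1. The same transcript fell in the vehicle mice, from 5.88 ± 0.267 to 2.80 ± 0.333 FPKM (SD, n = 3 each; log2 fold change -1.07, edgeR adjusted p 0.000667). Whole-gene values also take in cells without Cre and exons outside the deleted stretch, so they do not measure the deletion itself. The relatives of TFEB were close to level: Tfe3 was at 4.04 ± 0.232 FPKM in Tsc2 KO and 4.13 ± 0.112 in DKO (log2 fold change 0.04), Mitf at 3.10 ± 0.0695 and 2.79 ± 0.240 (-0.15), and Tfec at 2.90 ± 0.988 and 2.25 ± 0.440 (-0.36; SD, n = 3 each).

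A gene was called where the adjusted p was 0.05 or lower and its mean was at least 5 FPKM in either group. Of 16631 genes tested, 9 rose in DKO (0.0541%) and 13 fell (0.0782%). An unadjusted p under 0.05 was reached by 2090 genes, 1237 of them higher and 853 lower in DKO. All 22 called genes kept DKO and Tsc2 KO apart with no overlap between the 3 and 3 libraries, but so did many uncalled genes: 10.3% of all tested genes had all 3 DKO libraries above all 3 Tsc2 KO libraries and 10.9% had them below. The short list has limits. The main fit took no account of the replicate number, although same-numbered Tsc2 KO and DKO libraries deviated together. With the replicate number as a block, only Dpysl3 stayed called (adjusted p 0.0051) and the other 21 genes lay between 0.0512 and 0.0994. Leaving out Tsc2 KO 1, Tsc2 KO 2 or DKO 3 also left Dpysl3 alone. All 22 genes kept their direction in each of these fits, which share most of the libraries that the genes were picked from.

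The 13 called genes that fell included several secreted and surface proteins. Dpysl3 (chr18:43320979-43438286), a cytoskeletal protein best known from growing neurons, was at 17.3, 13.5 and 20.9 FPKM in Tsc2 KO and at 5.00, 3.92 and 4.17 in DKO, with controls at 1.55 ± 0.218 (SD, n = 3). The lowest Tsc2 KO library was more than 2-fold above the highest DKO library. The log2 fold change was -1.98 (SE 0.17, edgeR adjusted p 0.00162) and -2.09 without DKO 1, and Dpysl3 alone passed in every fit that left out a library (highest adjusted p 0.0268). Dkk3 (chr7:112116017-112159057), a secreted glycoprotein made by stressed tubular cells, was at 78.1, 106 and 47.8 FPKM in Tsc2 KO and at 13.3, 11.3 and 12.2 in DKO, near the 7.93 ± 1.69 of controls. It fell by 2.65 on the log2 scale (SE 0.34, edgeR adjusted p 0.0212), the steepest of the 13 falls. Spp1 (chr5:104435118-104441050), osteopontin, a secreted phosphoprotein abundant in injured tubules, was at 7528, 5681 and 7151 FPKM in Tsc2 KO, at 3142, 2568 and 3172 in DKO and at 1367 ± 165 in controls (log2 fold change -1.19, SE 0.19). Tnfrsf12a, the receptor of the cytokine TWEAK, was at 39.4, 39.0 and 36.2 FPKM in Tsc2 KO and at 17.1, 12.8 and 14.2 in DKO (log2 fold change -1.37), with controls at 6.50 ± 0.527. For both genes DKO libraries lay above all controls and below all Tsc2 KO libraries.

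Meltf and Pigz, both on chromosome 16, also fell. Meltf (chr16:31878810-31899020) encodes melanotransferrin, an iron-binding protein held at the surface by a GPI anchor. Meltf was at 6.82, 5.19 and 7.43 FPKM in Tsc2 KO, at 1.21, 1.42 and 1.05 in DKO and at 0.0155 to 0.0624 in the 3 controls (DKO against Tsc2 KO -2.40, SE 0.31, edgeR adjusted p 0.0212). Pigz (chr16:31933851-31946046), a mannosyltransferase of GPI anchor synthesis, was at 23.7, 19.8 and 22.2 FPKM in Tsc2 KO, at 3.81, 7.33 and 4.17 in DKO and at 0.660 ± 0.184 in controls (-2.10, SE 0.33, edgeR adjusted p 0.0355). Both were all but silent in controls, high in Tsc2 KO and in between in DKO. Pamr1, a secreted peptidase-domain protein, was at 8.69, 10.7 and 6.36 FPKM in Tsc2 KO and at 3.42, 3.27 and 2.54 in DKO (-1.48).

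Among membrane and cell body proteins, Slc20a1, a sodium-phosphate cotransporter, was at 14.0, 21.9 and 14.1 FPKM in Tsc2 KO and at 7.80, 7.29 and 6.78 in DKO (log2 fold change -1.19, SE 0.17, edgeR adjusted p 0.0247). Cadm4, a cell adhesion molecule, was at 69.0, 56.7 and 68.5 against 28.1, 33.7 and 35.5 FPKM (-0.99), with controls at 29.2 ± 1.76. Ccnd1, cyclin D, which carries cells from rest into the cycle, was at 42.8, 58.9 and 53.0 against 25.2, 22.8 and 24.5 FPKM (-1.09, edgeR adjusted p 0.0355), below all 3 controls (29.5 to 41.7). Dync1i2, an intermediate chain of the dynein motor, and Uap1l1, a relative of the enzyme that makes UDP-N-acetylglucosamine, had the smallest changes of the 13 (-0.78 and -0.74). DKO libraries of Uap1l1 were at 38.9 to 44.3 FPKM and Tsc2 KO libraries at 67.4 to 72.3.

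The 9 called genes that rose included several known from particular nephron segments. Kap (chr6:133849851-133853762), the androgen-regulated protein of the proximal tubule, was at 549, 274 and 844 FPKM in Tsc2 KO and at 7247, 3276 and 4119 in DKO, with controls at 8981 ± 1138 (SD, n = 3). Its log2 fold change was 3.14 (SE 0.52, edgeR adjusted p 0.0493), the largest rise, and 2.74 (adjusted p 0.0771) without DKO 1. Calb1 (chr4:15881264-15908064), the cytosolic calcium buffer of the distal convoluted and connecting tubule, was at 21.1, 12.4 and 34.5 FPKM in Tsc2 KO, at 106, 112 and 65.4 in DKO and at 109 ± 5.09 in controls (2.06, SE 0.33, edgeR adjusted p 0.0355). Insrr (chr3:87796951-87816101), the alkali-sensing insulin receptor-related receptor of intercalated cells, was at 3.18, 2.14 and 3.77 FPKM in Tsc2 KO and at 7.75, 11.5 and 10.3 in DKO, with controls at 7.98 ± 0.591 (1.70, SE 0.21, edgeR adjusted p 0.0212, and 0.0106 without DKO 1). Fxyd4, a regulator of the sodium pump in the collecting duct, was at 2.21, 2.67 and 2.78 against 9.59, 11.5 and 17.2 FPKM (2.32). For Calb1, DKO 1 and DKO 2 lay at the level of controls (103.5 to 112.7) and DKO 3 below it.

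Enzymes made up most of the rest. Hao2, a peroxisomal hydroxyacid oxidase, was at 114, 91.8 and 144 FPKM in Tsc2 KO and at 221, 296 and 288 in DKO (log2 fold change 1.21, SE 0.20), with controls higher again at 523 ± 54.3. Car4, the membrane-bound carbonic anhydrase that serves bicarbonate reabsorption, was at 17.0, 18.6 and 22.7 against 38.5, 41.6 and 36.0 FPKM (1.00, SE 0.14), and controls were at 62.6 ± 8.63. Ugt3a1, a glycosyltransferase of foreign compounds, was at 16.6, 17.8 and 22.3 against 78.9, 46.1 and 46.5 FPKM (1.6). Tldc2, of the TLDc family, and Afap1l1, an actin-associated protein, rose by 2.22 and 1.30 on the log2 scale. All DKO libraries of Hao2 and Car4 lay below all controls and above all Tsc2 KO libraries.

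**Figure D2:**
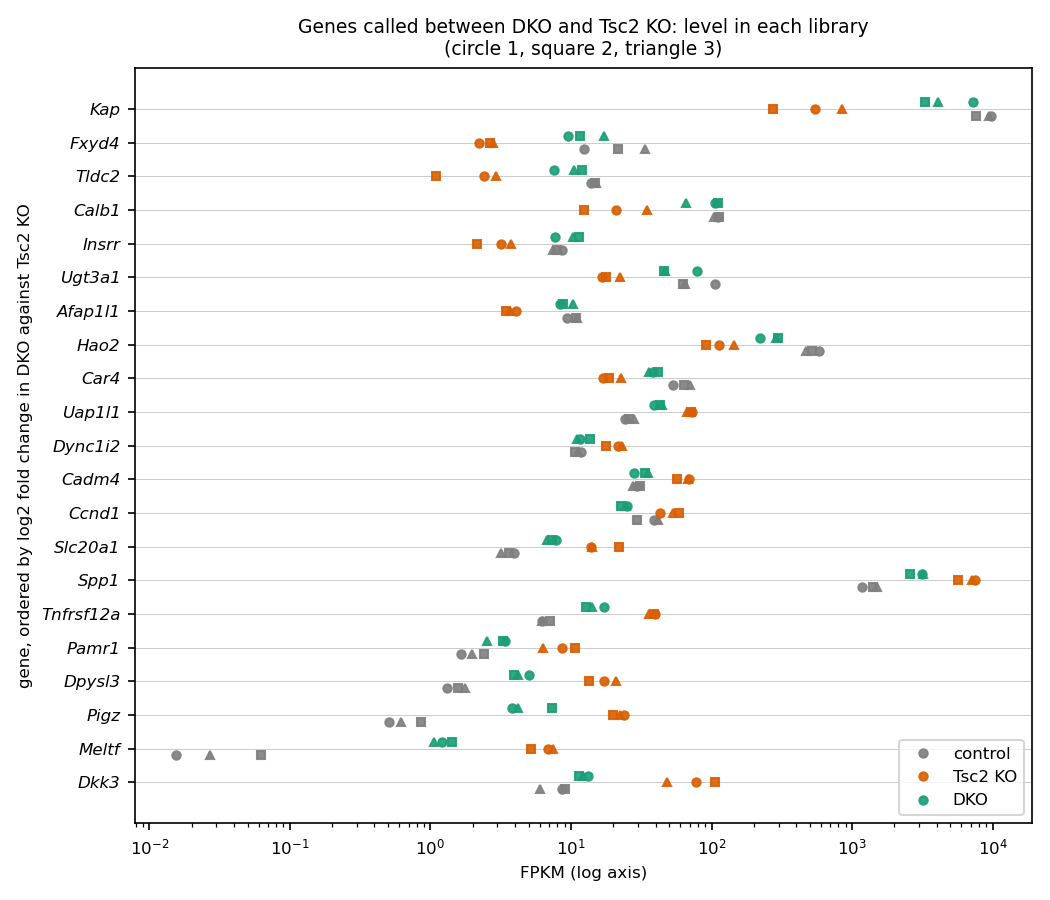
FPKM (log axis) of 21 of the 22 called genes in each control, Tsc2 KO and DKO library, 1 row a gene, with the marker shape giving the replicate number. In every row the 3 DKO points lie on one side of the 3 Tsc2 KO points.

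Without DKO 1, 9 of 16972 tested genes rose (0.053%) and 12 fell (0.0707%), and 12 of the 22 genes above were among them. The 10 that lost their call kept their direction, with edgeR adjusted p of 0.0749 for Pigz, 0.0695 for Spp1, 0.0697 for Ccnd1, 0.0594 for Cadm4, 0.0906 for Dync1i2, 0.0780 for Uap1l1, 0.0695 for Calb1, 0.0771 for Kap, 0.0535 for Ugt3a1 and 0.0529 for Car4. Their log2 fold changes moved little, the most for Kap (2.74) and Ugt3a1 (1.30). Of the genes called in this fit alone, Proz, a plasma cofactor in blood coagulation, was at 1.37, 1.65 and 1.33 FPKM in Tsc2 KO, at 1.40 in DKO 1, and at 7.97 and 5.79 in DKO 2 and DKO 3 (log2 fold change without DKO 1 of 2.25, edgeR adjusted p 0.00278). Lcn2, a secreted iron carrier and marker of tubular damage, was at 17.1, 13.5 and 19.1 FPKM in Tsc2 KO, at 91.6 in DKO 1, and at 0.796 and 1.43 in DKO 2 and DKO 3. Its direction depended on DKO 1, with a log2 fold change of 0.92 (edgeR adjusted p 0.826) with that library and -3.89 (adjusted p 0.0413) without it. Vcam1, an adhesion molecule of activated endothelium and failed-repair tubules, was at 6.53, 4.32 and 6.09 FPKM in Tsc2 KO, at 8.95 in DKO 1 and at 1.72 and 1.79 in the other DKO libraries. Its log2 fold change was -0.44 with all libraries (edgeR adjusted p 0.80) and -1.68 without DKO 1 (adjusted p 0.0366). DKO 1 was the highest and the other DKO libraries were the lowest for Lcn2 and Vcam1. Matn1, a cartilage matrix protein, was at 10.5, 10.7 and 7.72 FPKM in Tsc2 KO, at 0.0671, 0.388 and 0.696 in DKO and listed at 0 in all 3 controls (-4.68 with all libraries, edgeR adjusted p 0.0558, and 0.0366 without DKO 1). Uhrf1, which maintains DNA methylation in dividing cells, was at 4.8 to 6.18 FPKM in Tsc2 KO, at 4.02 in DKO 1 and at 1.91 and 1.80 in the others (-1.62 without DKO 1). Rcn1, a calcium-binding protein of the endoplasmic reticulum, had a log2 fold change of -1.37, and Lpin2, a phosphatidate phosphatase, of 1.04 in this fit.

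Lysosomal genes came next, since they are the best known targets of TFEB. The E-box core CACGTG and the longer form TCACGTGA, both of which read the same on either strand, were searched in the 250 bases before to 50 bases after each RefSeq start (GRCm38.p6). Every match of the longer form also holds the core. The core was present at 8.09% of 27025 genes and in 7.15% of 32851 promoters, and the longer form at 1.13% of genes. Of the 96 genes of the KEGG lysosome list, 75 matched a promoter, of which 21 held the core (28.0%) and 10 the longer form (13.3%). The windows below hold the motif, in capitals, in 4 lysosomal genes, in Rragc and Lamtor1, and in the called gene Slc20a1.
Ctsd, chr7:142387880-142387965, minus strand: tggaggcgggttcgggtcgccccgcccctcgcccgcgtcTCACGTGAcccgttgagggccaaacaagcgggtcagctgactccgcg
Mcoln1, chr8:3500408-3500518, plus strand: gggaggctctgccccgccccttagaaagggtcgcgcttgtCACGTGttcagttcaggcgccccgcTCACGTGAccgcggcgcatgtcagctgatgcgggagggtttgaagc
Gla, chrX:134601154-134601255, minus strand: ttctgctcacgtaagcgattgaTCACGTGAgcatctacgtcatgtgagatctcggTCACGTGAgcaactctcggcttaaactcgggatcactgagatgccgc
Cln3, chr7:126583312-126583425, minus strand: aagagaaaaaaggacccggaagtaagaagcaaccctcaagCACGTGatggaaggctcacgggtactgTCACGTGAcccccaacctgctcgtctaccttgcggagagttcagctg
Rragc, chr4:123917281-123917366, plus strand: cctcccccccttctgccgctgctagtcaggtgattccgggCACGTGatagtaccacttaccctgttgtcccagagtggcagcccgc
Lamtor1, chr7:101905729-101905814, plus strand: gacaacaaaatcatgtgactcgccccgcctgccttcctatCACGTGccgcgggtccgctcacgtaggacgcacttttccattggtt
Slc20a1, chr2:129198711-129198772, plus strand: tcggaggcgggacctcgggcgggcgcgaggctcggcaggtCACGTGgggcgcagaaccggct

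The motif lay 98 bases before the start of Ctsd, 71 and 45 bases before that of Mcoln1, 112 bases before that of Rragc and 68 bases before that of Lamtor1. Of the 22 called genes 13 matched a promoter, and Slc20a1 was the 1 that held the core, 22 bases before its start. A match is a description of letters in the window and no measure of binding.

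None of the 96 lysosomal genes was called, but 76 had a negative log2 fold change and 20 a positive one, with a median of -0.21 beside 0.01 over all tested genes. The study itself displays this pathway for these samples, so its direction here is not independent evidence. All 3 DKO libraries lay below all 3 Tsc2 KO libraries for 38 of the 96 genes and above them for 6, beside 10.9% and 10.3% of all tested genes. An unadjusted p under 0.05 was reached by 23 lower and 2 higher genes, beside 853 and 1237 of all 16631. The median was -0.20 without DKO 1 (72 lower, 24 higher) and stayed between -0.24 and -0.19 when any of the 6 libraries was left out. Summed over the list, Tsc2 KO libraries were at 7923, 7575 and 8775 FPKM, DKO libraries at 6127, 6555 and 6694 and controls at 5382 to 6350. The lowest Tsc2 KO sum was above the highest DKO sum. With DESeq2 on the same 12 libraries, 12 members passed as lower and 1, Ctsh, as higher, where 0.938% of all tested genes passed as lower and 1.14% as higher. Among the genes with a promoter, the 21 with the E-box core had a median of -0.33, with 20 of them lower, and the 54 without it had a median of -0.20, with 40 lower.

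Of the acid hydrolases, Ctsb (chr14:63122462-63145923), a cysteine protease, was at 512, 439 and 625 FPKM in Tsc2 KO, at 206, 293 and 296 in DKO and at 145 ± 8.88 in controls. The log2 fold change was -0.98 (SE 0.18), just short of the threshold by edgeR's test (adjusted p 0.0583), and -0.83 without DKO 1. Ctsd, the main aspartic protease, was at 415, 527 and 470 FPKM in Tsc2 KO, at 324, 348 and 311 in DKO and at 163 ± 11.7 in controls (-0.52, edgeR adjusted p 0.112). Hexa, a subunit of beta-hexosaminidase, which degrades gangliosides, was at 141, 149 and 141 against 62.6, 89.5 and 87.4 FPKM, with controls at 28.4 ± 0.473 (-0.84, edgeR adjusted p 0.112). For these 3 genes the DKO libraries lay below all Tsc2 KO libraries and above all controls. Ctsa, which protects other hydrolases, was at 102 to 118 against 69.6 to 81.8 FPKM (-0.57), and Neu1, a sialidase, at 132 to 158 against 79.3 to 115 (-0.59). Gla, the alpha-galactosidase with 2 copies of the longer motif, was at 5.31, 6.02 and 5.11 against 4.94, 3.60 and 4.49 FPKM (-0.33). The opposite order was seen for Ctsh, an aminopeptidase, at 19.9, 18.3 and 24.1 FPKM in Tsc2 KO and 39.6, 31.7 and 26.9 in DKO (0.66), with controls at 40.5 ± 3.38. Over the 14 proteases the median was -0.21, and -0.42 without DKO 1. Over 34 glycosidases, sulfatases and lipid hydrolases it was -0.27 (29 lower) and -0.24 without DKO 1.

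The V-ATPase, the proton pump that acidifies lysosomes, was lower in DKO for all 23 measured subunits and accessory proteins, with a median of -0.27. Without DKO 1, 19 of 23 were lower and the median was -0.21. All 3 DKO libraries lay below all Tsc2 KO libraries for 9 of the 23 genes, beside 10.9% of all tested genes. Atp6v0a1, a membrane-sector subunit, was at 23.4, 23.2 and 21.9 FPKM in Tsc2 KO, at 13.7, 15.6 and 17.6 in DKO and at 10.1 ± 0.122 in controls (-0.54, edgeR adjusted p 0.0878). Atp6v0b, of the proton-carrying ring, was at 127 to 147 against 97.4 to 104 FPKM (-0.40), and Atp6v1h, of the cytosolic sector, at 17.4 to 20.8 against 14.6 to 16.5 (-0.32). Atp6v0d2, an isoform that intercalated cells also express, was at 83.4, 111 and 61.8 against 45.9, 55.4 and 51.3 FPKM (-0.75). Of 27 lysosomal membrane proteins 19 were lower (median -0.17). Mcoln1, the calcium channel TRPML that feeds back on TFEB, was at 11.5, 10.2 and 11.2 against 8.74, 7.54 and 8.20 FPKM, with controls at 7.60 ± 0.175 (-0.42, edgeR adjusted p 0.105). Its DKO libraries overlapped the controls. Mfsd12, a cysteine transporter, was at 9.74 to 11.9 against 5.59 to 7.47 FPKM (-0.69), Ostm1 at 6.22 to 7.69 against 4.43 to 5.11 (-0.55), and its partner Clcn7, the chloride-proton exchanger, at 19.0 to 22 against 13.9 to 16.0 (-0.43). Cln3 was at 8.06 to 10.8 against 7 to 7.24 FPKM (-0.39). Gnptab, which tags hydrolases with mannose phosphate, was at 14.9 to 17.8 against 9.20 to 12 FPKM (-0.56). None of these genes was called by edgeR. DESeq2 called Atp6v0a1, Atp6v0b, Atp6v1h, Atp6v0d2, Mcoln1, Mfsd12, Ostm1 and Gnptab lower, beside 0.938% of all genes.

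**Figure D3:**
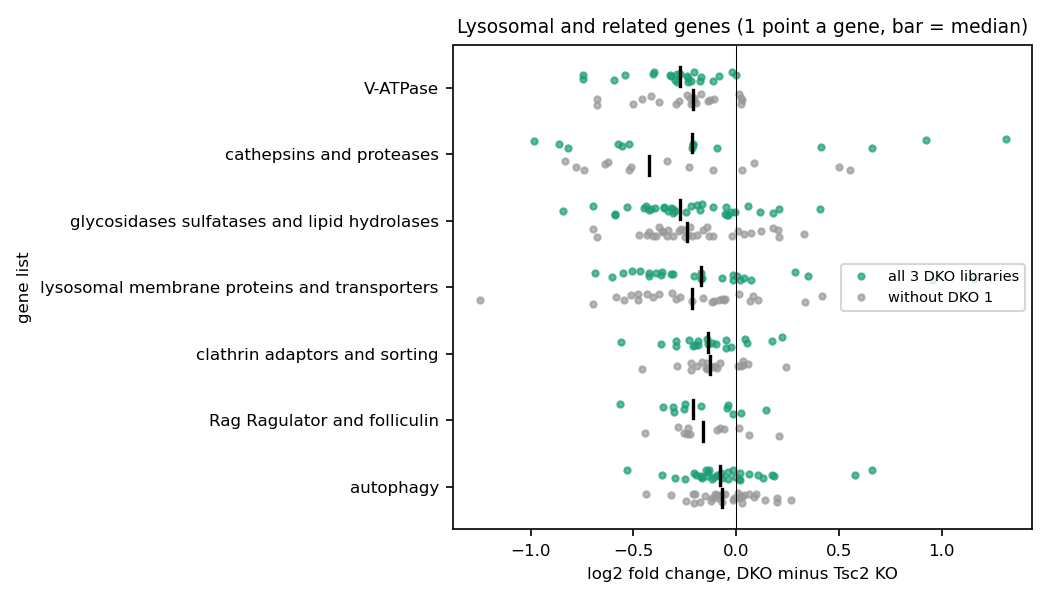
Log2 fold change of DKO minus Tsc2 KO for each gene of 7 lists, with all 3 DKO libraries (green) and without DKO 1 (grey), and the list median as a bar. With all libraries the V-ATPase points lie left of 0, with a median of -0.27, while 4 of 23 lie right of 0 without DKO 1, and the autophagy median is nearest to 0.

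The Rag GTPases, Ragulator and folliculin, which control mTORC1 at the lysosome, were lower for 10 of 12 genes (median -0.21, and -0.16 without DKO 1), 6 of them with an unadjusted p under 0.05, beside 853 lower genes among all 16631. None was called by edgeR or by DESeq2 on all 4 groups, while DESeq2 on DKO and Tsc2 KO alone called Rragd (adjusted p 0.0263). Rragd was at 36.1, 40.6 and 39.6 FPKM in Tsc2 KO, at 21.5, 25.8 and 31.1 in DKO and at 13.6 ± 3.17 in controls (log2 fold change -0.57, edgeR adjusted p 0.213). Rragc was at 38.7, 35.9 and 39.4 against 28.4, 31.0 and 32.5 FPKM, with controls at 23.5 ± 1.88 (-0.31). Lamtor1, which anchors Ragulator to the membrane, was at 30.6, 28.8 and 27.0 against 23.3, 24.8 and 24.5 FPKM (-0.25), and Lamtor3 at 11.0 to 12.8 against 9.35 to 10.4 (-0.25). Flcn, the activator of RagC and RagD, was at 14.2 to 15.1 against 10.8 to 12.7 FPKM (-0.30). The 3 DKO libraries lay below the 3 Tsc2 KO libraries for each of these 5 genes and for 6 of the 12 in all, beside 10.9% of all tested genes, and Rragd was above all controls in DKO. Gpnmb, a lysosomal glycoprotein and a known target of MiT/TFE factors, was at 5.86, 8.82 and 4.50 FPKM in Tsc2 KO, at 4.6, 1.80 and 0.502 in DKO and at 0.0171 to 0.0393 in the controls. DKO 1 overlapped Tsc2 KO, and the log2 fold change of -1.46 (edgeR adjusted p 0.308) became -2.47 (adjusted p 0.081) without it. In vehicle mice Gpnmb fell from 18 ± 0.903 to 0.651 ± 0.495 FPKM (SD, n = 3 each; -4.77, edgeR adjusted p 0.000294).

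The 12 genes of the TSC complex and the mTORC1 core had a median of -0.02, and 33 autophagy genes one of -0.08. Sqstm1, the receptor p62 for ubiquitinated cargo, was at 268, 256 and 262 FPKM in Tsc2 KO and at 157, 187 and 199 in DKO, with controls at 140 ± 5.08 (-0.53, edgeR adjusted p 0.145). Vps18, a tethering factor for lysosomal fusion, was at 12 to 13.6 against 9.24 to 10.3 FPKM (-0.36). The 26 tested genes of the ATF4 and one-carbon list, a stress programme that mTORC1 stimulates, had a median of -0.20 (17 lower). Its member Gdf15, a secreted stress signal, was at 31.9, 27.2 and 15.5 against 14.4, 11.2 and 9.35 FPKM (-1.09), and Aldh18a1, of proline synthesis, at 4.57 to 5.35 against 2.92 to 4.12 (-0.57). Mthfd2, of mitochondrial folate metabolism, was at 4.93, 6.53 and 5.26 against 3.98, 3.08 and 4.62 FPKM, with controls at 1.31 ± 0.337 (-0.51). The 26 SREBP targets, which make sterols and fatty acids, had a median of -0.35 and -0.21 without DKO 1, led by Sqle at 21.5 to 28.8 against 15.9 to 18.3 FPKM (-0.59) and Hmgcs1 at 81.4 to 106 against 61.2 to 74.4 (-0.49). Glycolysis and HIF genes had a median of -0.06, with values on both sides. Hif1a was at 16.7 to 22.1 FPKM in Tsc2 KO and 25.0 to 36.2 in DKO (0.66), and the prolyl hydroxylase Egln3 at 3.52 to 4.50 and 7.87 to 8.78 (1.00). None of these 5 lists held a gene called by edgeR. An unadjusted p under 0.05 was reached by 1 gene of the mTORC1 core, 2 of autophagy, 9 of the ATF4 list (2 higher and 7 lower), 5 of the SREBP list and 5 of the glycolysis list (3 higher and 2 lower), beside 2090 of all 16631 genes. DESeq2 called Egln3 higher, beside 1.14% of all genes, and Sqstm1, Sqle and Gapdh lower, beside 0.938%. Gapdh is a gene whose reads may be shared with near-identical copies.

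The marker lists of 3 tubule segments had a positive median in DKO against Tsc2 KO, and that of intercalated cells a negative one. Each of these 4 lists held 1 gene called higher by edgeR (Kap, Calb1, Fxyd4 and Insrr), beside 0.0541% of all tested genes. DESeq2 called 6, 8, 4 and 3 of their genes higher, beside 1.14% of all genes. It called 2 intercalated cell genes lower, Atp6v0d2 and Dmrt2, beside 0.938%. Of 26 proximal tubule genes 15 were higher, beside 8572 of all 16631 tested genes, and 22 without DKO 1, beside 8135. The median was 0.39, and -0.03 when DKO 2 was left out, so the direction of the list depended on that library. Slc22a6 and Slc22a8, the organic anion transporters of the basolateral membrane, were at 18.5, 20.5 and 31.5 against 44.3, 71.0 and 51.5 FPKM (1.25, edgeR adjusted p 0.0598), and at 58.8, 47.8 and 65.8 against 104, 168 and 117 FPKM (1.18, edgeR adjusted p 0.0524, and 0.0482 without DKO 1). Controls were higher than every DKO library for both, at 135 ± 18.4 and 268 ± 2.08. Of 22 genes of the thick limb and distal convoluted tubule 18 were higher (median 0.36, and 0.45 without DKO 1, where none was called by edgeR). Kcnj1, the potassium channel ROMK, was at 47.1, 41.5 and 51.1 against 104, 64.9 and 96.6 FPKM (0.93). Ppp1r1a was at 65.3 to 78.0 against 87.0 to 159 FPKM (0.86), and the kinase Wnk4 at 31.8 to 32.3 against 41.5 to 47.4 (0.48).

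In the collecting duct, 12 of 15 tested principal cell genes were higher (median 0.42, and 0.45 without DKO 1). Aqp2, the vasopressin-regulated water channel, was at 141, 150 and 150 FPKM in Tsc2 KO and at 359, 622 and 618 in DKO (1.86, edgeR adjusted p 0.0598), with controls at 235 to 574. Aqp3, the basolateral water channel, was at 24.4 to 35.0 against 57.3 to 85.2 FPKM (1.12), and Aqp4 at 0.603 to 4.54 against 12.1 to 43.5 (3.61). Intercalated cell genes split, with 7 higher and 14 lower and a median of -0.23 (-0.16 without DKO 1). Beside Insrr, the higher ones included Slc26a4, the anion exchanger pendrin, at 26.5, 14.4 and 29.2 against 53.5, 68.0 and 59.7 FPKM (1.37, edgeR adjusted p 0.0547), Slc4a9 at 15.5, 7.70 and 15 against 32.8, 35.6 and 36.3 (1.46), and the transcription factor Hmx2 at 1.42 to 2.47 against 4.50 to 5.18 (1.27). These genes mark the intercalated cells that secrete bicarbonate, while the lower genes of the list included the V-ATPase subunit Atp6v0d2 named above. Slc26a4 was also above all 3 controls in DKO.

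Cell types outside the tubule were measured too, and none of their genes was called by edgeR. Of 12 podocyte genes 10 were higher in DKO (median 0.63), 7 of them with an unadjusted p under 0.05 (1237 higher genes among all 16631) and 3 called by DESeq2, among them Nphs1 (nephrin) at 2.07 to 2.62 against 3.04 to 4.44 (0.64) and Cdkn1c at 6.23 to 7.52 against 9.44 to 12 (0.69). All 16 endothelial genes were higher (median 0.37, and 0.49 without DKO 1), with 3 at an unadjusted p under 0.05. But groups overlapped for 15 of the 16, such as Pecam1 at 7.29 to 10.1 against 9.36 to 14.1 FPKM (0.44) and Erg at 1.95 to 3.17 against 2.62 to 4.59 (0.56). Controls were higher than DKO for podocyte sums (152 to 191 FPKM against 107 to 111), and Tsc2 KO sums were lowest (63.2 to 84.2). Fatty acid oxidation genes, a programme of the proximal tubule under PPARA, had a median of -0.04 (11 higher, 16 lower), with a sign that changed when Tsc2 KO 2, DKO 1 or DKO 3 was left out. Within that list the 4 lowest p-values belonged to genes of both signs. Ehhadh, of the peroxisomal pathway, was at 38.9, 53.3 and 58.0 against 102, 115 and 82.7 FPKM (1.00, edgeR adjusted p 0.0524), Acadm at 68.3 to 104 against 131 to 164 (0.74), and Cyp4a14 at 13.0 to 30.6 against 43.4 to 78.8 (1.39). DESeq2 called Ehhadh and Cyp4a14 higher, beside 1.14% of all genes. For Ehhadh, Acadm and Cyp4a14 the DKO libraries stayed below the controls. Acot2, a mitochondrial acyl-CoA thioesterase, was at 18.1, 34.6 and 20.0 against 12.7, 16.8 and 16.3 FPKM (-0.66).

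The tubular injury list was at 8797, 6952 and 8297 FPKM in Tsc2 KO and at 5146, 3552 and 3932 in DKO when summed, a sum that Spp1 dominates, against 1703 to 2187 in controls. Its median log2 fold change was -0.15 with 18 of 28 genes lower and 1 called lower (0.0782% of all genes were), and -0.89 with 21 lower and 2 called lower without DKO 1 (0.0707% of all genes). DESeq2 called Krt19 and Krt7 higher, beside 1.14% of all genes, and Sox4 and Spp1 lower, beside 0.938%. It turned positive without DKO 2 (0.01) or DKO 3 (0.14). Sox4, a transcription factor of regenerating tubules, was at 9.59, 14.5 and 12.5 against 5.80, 5.53 and 6.31 FPKM (-1.05). Krt19, an epithelial keratin, had the opposite sign, at 4.69, 15.1 and 6.29 in Tsc2 KO against 90.7, 34.0 and 10.5 FPKM in DKO (2.38, edgeR adjusted p 0.145). Of 30 matrix genes 19 were lower (median -0.20, and -0.59 without DKO 1), and the median turned positive without DKO 2 (0.02) or Tsc2 KO 1 (0.15). Col8a1 was at 4.81, 3.77 and 5.57 against 0.834, 1.98 and 1.31 FPKM (-1.78, edgeR adjusted p 0.0524), and Col4a2, a basement membrane collagen, at 53.3 to 76.0 against 38.1 to 44.4 (-0.62). DESeq2 called Col4a2 and Sparc lower, beside 0.938% of all genes.

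Cell cycle genes were lower in DKO without exception: 28 of 28 had a negative log2 fold change, with a median of -0.80 and -1.15 without DKO 1, and between -1.15 and -0.62 over the fits that left out a library. All 3 DKO libraries lay below all Tsc2 KO libraries for 16 of them, beside 10.9% of all tested genes. Without DKO 1 the 2 remaining DKO libraries did so for 27, beside 18.2% of all tested genes (15.5% had them above). Ccnd1 was the 1 called gene, beside 0.0782% of all genes, and none was called without DKO 1, while DESeq2 called Ccnd1 and Rrm2 lower, beside 0.938%. Rrm2, the ribonucleotide reductase subunit of S phase, was at 14.7, 16.2 and 11.3 FPKM in Tsc2 KO, at 7.88, 5.94 and 5.83 in DKO and at 2.58 ± 0.749 in controls (-1.10, edgeR adjusted p 0.068). Mcm2, of the replicative helicase, was at 4.33 to 4.98 against 2.45 to 3.95 FPKM (-0.54). Kif11, a spindle motor, was at 2.12, 2.21 and 1.55 in Tsc2 KO, at 1.5 in DKO 1, and at 0.743 and 0.741 in DKO 2 and DKO 3 (-0.97, and -1.40 without DKO 1). The sums were 156 to 198 FPKM in Tsc2 KO, 85.0 to 127 in DKO and 76.3 to 79.8 in controls.

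**Figure D4:**
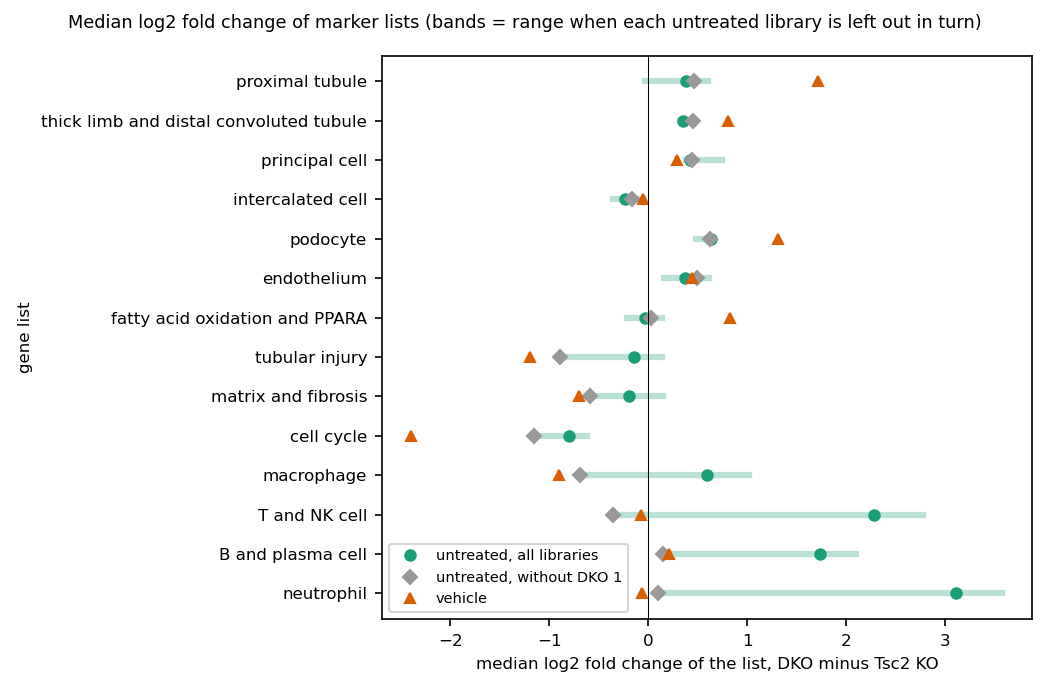
Median log2 fold change (DKO minus Tsc2 KO) of 14 marker lists in the untreated mice with all libraries (circles), without DKO 1 (diamonds) and in the vehicle mice (triangles), with bands for the range over the fits that left out 1 library each. The cell cycle list is below 0 throughout, while the macrophage and T and NK cell medians change sign when DKO 1 is left out.

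Immune lists depended on DKO 1, and none of their genes was called by edgeR. DESeq2 called S100a9, Ifit1 and Ifit3 higher, beside 1.14% of all genes. S100a9 belongs to the neutrophil list (4 genes tested), and Ifit1 and Ifit3 to that of chemokines, complement and interferon response (27 tested). Of 25 macrophage genes 21 were higher with that library (median 0.59), and 24 were lower without it (median -0.69), 18 of them with both remaining DKO libraries below all Tsc2 KO libraries, beside 18.2% of all tested genes. Lyz2, the lysozyme of myeloid cells, was at 53.2, 31.3 and 34.0 FPKM in Tsc2 KO, at 403 in DKO 1, and at 23.2 and 27.5 in DKO 2 and DKO 3. Cd74, the invariant chain of antigen-presenting cells, was at 745, 498 and 463 in Tsc2 KO and at 1619, 195 and 269 in DKO, with controls at 162 ± 34.7. For these 2 genes DKO 1 was the highest library and the other DKO libraries were below every Tsc2 KO library. The T and NK cell median went from 2.28 to -0.36 without DKO 1, that of B and plasma cells from 1.74 to 0.15 and that of neutrophils from 3.11 to 0.10. Gzma, a cytotoxic granzyme, was at 20.9 FPKM in DKO 1 and at 0.117 to 0.421 in the other DKO and Tsc2 KO libraries. The immunoglobulin constant gene Igkc was at 425, 60.0 and 163 against 3457, 52.5 and 73.3 FPKM, so that it varied 7-fold even within Tsc2 KO. Cxcl9, a chemokine induced by interferon gamma, was at 30.2 FPKM in DKO 1 and at 0.973 to 1.88 elsewhere in both groups. By contrast, the interferon-induced Ifit3 was at 24.5, 31.7 and 31.5 against 55.3, 42.5 and 78.2 FPKM, with DKO above all Tsc2 KO libraries in all 3 mice (1.01, edgeR adjusted p 0.1, and 1.05 without DKO 1). Ifit1 was at 5.79 to 11.6 against 15 to 24 (0.99). Erythroid transcripts were higher in DKO than in Tsc2 KO (Hbb-bs at 9.41, 21.9 and 20.9 FPKM in Tsc2 KO against 41.0, 96.7 and 301), for 6 of the 7 genes tested. Erythroid sums were 48.2 to 77.4 FPKM in Tsc2 KO, 98.1 to 666 in DKO and 145 to 517 in controls. Against controls the median log2 fold change was -3.17 in Tsc2 KO and -0.25 in DKO.

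The same contrast was made in the vehicle mice, whose libraries differed in adrenal transcripts. The adrenal sum was 1426, 51.3 and 1.39 FPKM in vehicle Tsc2 KO 1 to 3 and 309, 4613 and 1.32 in vehicle DKO 1 to 3, and the part of adrenal tissue in the vehicle results was not tested beyond leaving libraries out. With all 6 libraries 1345 of 17027 tested genes rose in DKO (7.9%) and 1003 fell (5.89%). Of the 22 genes called in untreated mice, all 9 that rose also rose in vehicle mice, and 12 of the 13 that fell also fell. Without the libraries with the most adrenal transcripts, vehicle Tsc2 KO 1 and vehicle DKO 2, the vehicle counts were 1256 and 685, and 8 of the 9 and 9 of the 13 genes were called. With vehicle Tsc2 KO 3 and vehicle DKO 3 alone, where each is assumed to vary like the other groups, the counts were 300 and 63, and 7 of the 9 and 5 of the 13 were called. All 22 genes kept their direction in both fits. Cadm4 was the exception with all libraries, at 56.2 ± 15.6 and 36.7 ± 14.4 FPKM (SD, n = 3 each; log2 fold change -0.61, edgeR adjusted p 0.15). Dkk3 was at 107 ± 20.0 against 14.4 ± 2.76 FPKM (-2.90), Dpysl3 at 14.0 ± 2.27 against 4.70 ± 0.562 (-1.58) and Calb1 at 17.2 ± 4.21 against 114 ± 19.6 (2.73; SD, n = 3 each). Lysosomal genes had a median of -0.13 in vehicle mice, with 17 called lower and 8 higher. Among them Hexa was at 153 ± 23.5 against 89.4 ± 12.4 FPKM (-0.77), Ctsd at 661 ± 81.3 against 357 ± 57.8 (-0.89) and Ostm1 at 9.24 ± 0.704 against 5.64 ± 0.233 (-0.71). The Ctsh and V-ATPase directions were shared, with Ctsh at 17.4 ± 1.80 against 32.4 ± 1.46 FPKM (0.89) and a V-ATPase median of -0.20. Without vehicle Tsc2 KO 1 and vehicle DKO 2 the lysosomal median was -0.05 and that of the V-ATPase -0.07, and Hexa and Ctsd were no longer called, at log2 fold changes of -0.76 and -0.67 (edgeR adjusted p 0.0606 and 0.141). With all 6 vehicle libraries Rragc fell (47.2 ± 8.41 to 29.5 ± 1.76 FPKM, -0.68), as did Rragd (50.6 ± 7.41 to 30.4 ± 7.13, -0.73) and Mthfd2 (7.45 ± 0.671 to 3.22 ± 0.168, -1.21). Rragd was not called without vehicle Tsc2 KO 1 and vehicle DKO 2, at -0.58 (edgeR adjusted p 0.0698), while Rragc was at -0.46 and Mthfd2 at -1.15. Of the proximal tubule genes 21 of 26 rose, with a median of 1.71 (1.85 without those 2 libraries), and the cell cycle median was -2.39 (-2.81). Across 16401 genes tested in both cohorts the log2 fold changes had a Pearson correlation of 0.426. It was 0.570 without untreated DKO 1, 0.296 without vehicle Tsc2 KO 1 and vehicle DKO 2, and 0.315 with vehicle Tsc2 KO 3 and vehicle DKO 3 alone, a description across genes that are not independent replicates.

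The 2 cohorts were then compared by a test of the difference of their effects. The fit held 30 KspCre libraries, 9 of them from rapamycin-treated mice. Of 17645 genes tested, 436 (2.47%) were called, 367 with the lower untreated effect and 69 with the higher one. Without untreated DKO 1 the number was 128, with only the 4 groups of the contrast in the fit 28, without vehicle Tsc2 KO 1 and vehicle DKO 2 408, and with 1 vehicle library a group, those lowest in adrenal transcripts, 1. With the replicate number as a block in the untreated cohort 373 genes were called, 361 of them among the 436, and with a block in both cohorts 348, 329 of them among the 436. Insrr was the 1 gene of the 22 among them, at 0.865 ± 0.370 against 11.2 ± 4.06 FPKM in vehicle mice, a rise of 3.69 against 1.70 in untreated mice. All 11 proximal tubule genes called for the difference had the lower untreated effect, as had all 6 of the fatty acid oxidation list. As an example, Slc22a6 was at 6.05 ± 3.84 FPKM in vehicle and 23.5 ± 6.98 in untreated Tsc2 KO, and at 69.0 ± 6.01 and 55.6 ± 13.8 in DKO. Slc26a4 was at 6.62 ± 2.65 and 23.4 ± 7.87 FPKM in Tsc2 KO, and at 78.2 ± 29.9 and 60.4 ± 7.32 in DKO. Levels between cohorts come from tables made separately and carry no test.

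**Figure D5:**
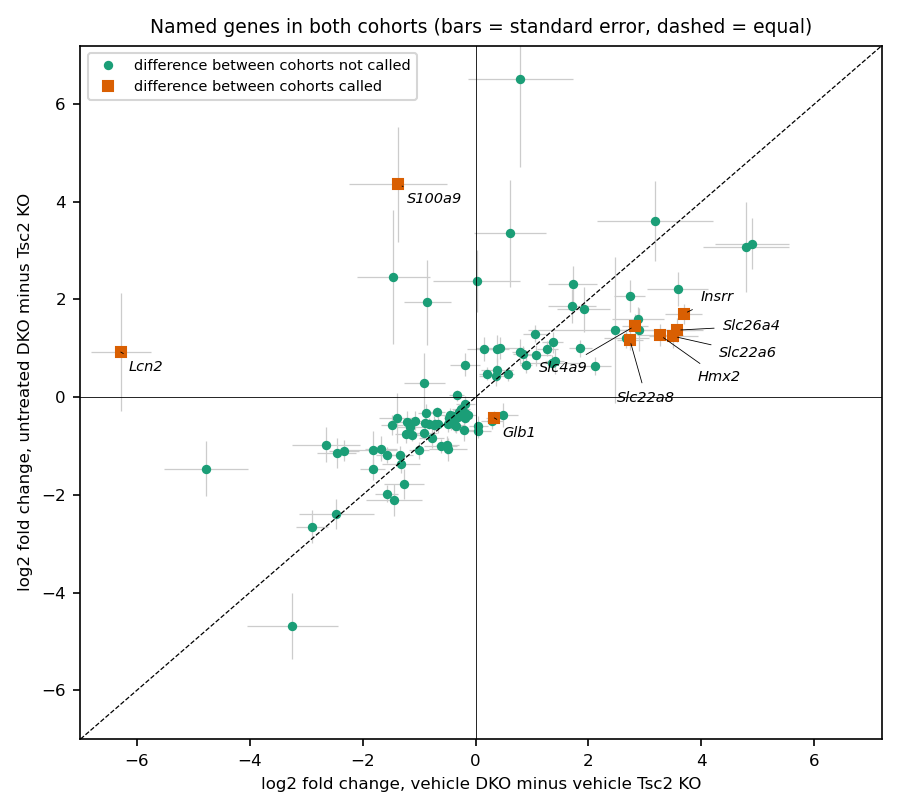
Log2 fold change of DKO minus Tsc2 KO in untreated mice (vertical axis) against that in vehicle mice (horizontal axis) for the named genes, with bars for standard errors and a dashed line of equal effects. Squares mark the 9 genes for which the difference between cohorts was called, with Lcn2 and S100a9 in the upper left and Insrr, Slc26a4, Slc22a6, Slc22a8, Slc4a9 and Hmx2 to the right of the line.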

How the data were processed

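RNA was extracted with a column kit from pieces of kidney, captured by poly-A and sequenced from a non-directional library, so reads of overlapping genes on opposite strands cannot be told apart. The authors deposited counts of reads per gene as whole numbers without normalization, and FPKM values, which they had scaled by gene length and library size. The submitters' processing notes name HISAT2 2.0.5, STAR 2.6.1d, featureCounts 1.5.0-p3, DESeq2 1.20.0 and the build mm10, with no roles. Levels are deposited FPKM as mean ± SD over mice. Each cohort's tables were made separately.

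Genes were tested on the counts with edgeR 4.0.16 in R 4.3.3 (filterByExpr, TMM, glmQLFit and glmQLFTest, group means, 2-sided), with all 4 untreated KspCre groups in 1 fit and Benjamini-Hochberg adjustment over all tested genes. DESeq2 1.42.0 was an alternative. The difference between cohorts was an interaction contrast over the 30 KspCre libraries, 12 untreated, 9 vehicle and 9 rapamycin-treated. The fits were tested on simulated data. The named genes are those the study names, every called gene, the genes called without DKO 1, and of each list the 4 with the lowest p and those highest in DKO 1. Gla and Cln3 were added for their promoters, and Sprr2f, Slpi, Ubd and Gapdh after their values were seen. Values of 1 called gene and 1 list member are not reported here. The members and lists were chosen with earlier results of these data known. Same-numbered Tsc2 KO and DKO libraries deviated together (correlations 0.239, 0.246 and 0.189, against 0.00463 or less for other pairs). The main fit and its adjusted p-values nevertheless took no account of the replicate number. A fit with that number as a block is given as an alternative. The labels give only the number, and no source used here says what it shares. In vehicle mice the same-numbered correlations were 0.0848, -0.0431 and 0.358, and the vehicle contrast was fitted without a block. No 2 replicates agreed within sampling noise (17.8 times that noise or more per gene). Of 54532 gene identifiers, 54409 were found in GENCODE M21. Promoter sequences are RefSeq's.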

Additional observations from a re-analysis of the deposited data

Results flagged for a closer look

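Of the named genes, 9 had an effect of Tfeb loss that differed between untreated and vehicle mice by edgeR's test of the difference with Benjamini-Hochberg adjustment. All differences are the untreated log2 fold change minus the vehicle one. In 6 genes of tubular function the difference between DKO and Tsc2 KO was smaller in untreated mice, by -2.0 for Insrr (adjusted p 0.00723), -1.57 for Slc22a8 (0.00784), -2.28 for Slc22a6 (0.0173), -2.21 for Slc26a4 (0.0058), -1.38 for Slc4a9 (0.0251) and -2.02 for Hmx2 (0.0243). Of these Insrr, Slc22a8 and Slc26a4 stayed called without DKO 1 (adjusted p 0.0337, 0.0374 and 0.0289), and Slc22a6, Slc4a9 and Hmx2 were at -2.13, -1.32 and -1.95 (0.0658, 0.0906 and 0.083). Glb1, lysosomal beta-galactosidase, was lower in untreated DKO (-0.42) and higher in vehicle DKO (0.33), a difference of -0.77 (adjusted p 0.0332), and of -0.69 without DKO 1 (adjusted p 0.133). Lcn2 differed by 7.18 (adjusted p 0.00936) and the neutrophil protein S100a9 by 5.71 (adjusted p 0.034). Without DKO 1 the difference was 2.40 for Lcn2 (adjusted p 0.156) and 3.74 for S100a9 (adjusted p 0.224), and for the other 7 genes it kept its direction. The part of DKO 1 in these differences beyond those values was not tested. With only the 4 groups of the contrast in the fit none of the 9 was called (adjusted p 0.0916 to 0.151). Without the vehicle libraries Tsc2 KO 1 and DKO 2, which held the most adrenal transcripts, 8 of the 9 were called and S100a9 was not (0.121), and with 1 vehicle library a group, so with fewer libraries, none was (0.235 to 0.793). All 9 differences kept their direction there, with -1.80 for Insrr, -1.96 for Slc26a4, -1.23 for Slc22a8, -1.36 for Slc4a9, -1.46 for Hmx2, -0.66 for Glb1, 6.43 for Lcn2 and 3.69 for S100a9. With the replicate number as a block in the untreated cohort 8 of the 9 were called and S100a9 was not (adjusted p 0.0504), and with a block in both cohorts 5 were called (0.0181 to 0.0749 over the 9), Glb1, Lcn2, S100a9 and Slc4a9 not being among them.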

How the results depend on the processing

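The count of called genes depended on the tool and on single libraries, while the direction of the 22 called genes did not change in any fit. These genes were picked from the same libraries and their groups did not overlap. Their stable direction is therefore no independent support. Against 9 higher and 13 lower genes, DESeq2 called 188 and 155 with all 4 groups and 293 and 231 with the 2 groups alone, and edgeR called 5 and 8 with the 2 groups alone, 86 and 55 with no filter on low counts, and 5 and 9 where 5 FPKM was required in every library. With the replicate block 0 were higher and 1 lower, and this changed the call of 21 of the 22 genes. Leaving out 1 library gave 0 to 12 higher and 1 to 12 lower genes. RLE scaling in place of TMM changed neither count. The difference between cohorts was called for 28 genes with only the 4 groups of the contrast and for 128 without DKO replicate 1. After seeing the data, the replicate block was added to that test (373 genes with it in the untreated cohort and 348 in both), and vehicle libraries with adrenal transcripts were left out. Without all 4 of them, 300 genes were higher and 63 lower in vehicle DKO and 1 gene differed between cohorts. Tsc2 was called higher in DKO (0.48) by DESeq2 with the 2 groups alone. Over the fits that left out 1 library the log2 fold change ran from -3.89 to 1.49 for Lcn2 (-0.39 with the replicate block), from -0.64 to 2.45 for Lyz2, from -1.78 to 3.42 for Igkc and from -1.29 to 0.73 for Cd74. List medians that changed sign ran from -0.0537 to 0.0492 for the mTORC1 core, -0.22 to 0.14 for fatty acid oxidation, -0.0272 to 0.61 for the proximal tubule, -0.89 to 0.14 for injury, -0.59 to 0.15 for matrix, -0.69 to 1.02 for macrophages, -0.36 to 2.78 for T and NK cells, -0.0729 to 0.86 for chemokines and -0.15 to 6.46 for fat. The causes were not tested.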
